A study of Oryza sativa with 12 samples.

Results

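The genes described here belong to the BURP-domain family of rice (Oryza sativa). They were found by name, as array probe sets whose single listed gene carries 1 of 10 BURP names as its symbol or synonym. Of those 10 names, 5 genes were matched, with 6 of the 57381 probe sets on the array: BURP2 (LOC4338119, chromosome 5, with 2 probe sets), BURP3 (LOC4324159, chromosome 1), BURP12 (LOC4345440, chromosome 8), BURP16 (LOC4348595, chromosome 10) and BURP17 (LOC4349896, chromosome 11). BURP5, BURP6, BURP7, BURP9 and BURP11 were not matched by name and were not analysed here. The family was chosen from earlier results of the same arrays, in which BURP2 stood out by its difference between panicle and flag leaf. Organ differences are therefore given as a description, with no test, and tests are kept for the comparison of the lines.

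BURP proteins are plant proteins named after 4 founding members: BNM2 of rapeseed microspore embryos, USP of field bean seeds, RD22 of Arabidopsis dehydration response and the beta subunit of tomato polygalacturonase 1. A signal peptide usually sends them to the secretory pathway, and a C-terminal domain with spaced cysteine-histidine pairs defines the family. Members have been linked to cell walls, to drought and salt response and to pollen formation. Of the genes measured here, BURP16 is of the polygalacturonase beta subunit kind, and its overexpression in rice has been tied to less pectin in the wall and to greater sensitivity to cold, salt and drought. RAFTIN1 (BURP13), which is no member here, is the anther protein of the family, needed for pollen development.

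Flag leaves and young, fully emerged panicles of field-grown rice of the lines KMR3 and IL50-7 were compared on 12 Affymetrix rice arrays. There were 4 groups of 3 arrays that the labels call biological replicates: KMR3 leaf, IL50-7 leaf, KMR3 panicle and IL50-7 panicle. IL50-7 is an introgression line, which carries donor chromosome segments in the background of another variety. No treatment, plant age or donor is named in the labels, and whether RNA was pooled from several plants is not stated there. Levels are log2 intensities of a probe set after quantile normalization. A level under 4.01 (an intensity of 16.1), which only 5% of the values of 23 unspiked control probe sets exceed, is called background and is not read as a measured amount. Levels are compared between arrays for the same probe set and never between probe sets.

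The organ labels matched the floral genes looked at and part of the leaf genes. In the panicle 11 of 12 floral marker probe sets of the MADS-box kind and DROOPING LEAF were higher in KMR3 and 12 of 12 in IL50-7, and their summed intensity was 15510 to 17442 in panicles, 220 to 305 in KMR3 leaves and 98.1 to 152 in IL50-7 leaves. In leaves 2 of the 12 were called lower in IL50-7 by limma, MADS3 (adjusted p = 0.0267) and MADS6 (adjusted p = 0.0203), the latter with both leaf means under background. Of 8 tested leaf marker probe sets, from a list chosen with earlier results of these data known, 5 were lower in the panicle of each line. These were of CRSH2, RR4, RR9 and RBCS. Those of CAB2R were not, with panicle minus leaf differences of -0.23 and 0.06 in KMR3 and -0.20 and -0.03 in IL50-7. Another RBCS probe set was not either (-0.53 in KMR3 and -0.79 in IL50-7). Over all probe sets tested, 19.8% were higher and 21.7% lower in the KMR3 panicle, and 17.9% and 20.3% in that of IL50-7. In leaves 0.0729% of all were called between lines. The GAPDH control, whose 3' signal over 5' signal grows as RNA breaks down, gave ratios of 2.54 to 6.32 for leaves and 7.68 to 23.3 for panicles. The same ratio for actin overlapped between organs, at 5.17 to 9.40 and 4.95 to 13.4. The GAPDH ratio moved with the organ differences given below, and its part in them was not tested. Before any panicle line comparison, 2 arrays need care. Among 23 probe sets that were on in the leaves of 1 line and off in the other, and that varied among panicles, the library labelled KMR3 panicle replicate 3 matched its own line at 3, and the library labelled IL50-7 panicle replicate 2 at 4. The other 4 panicle arrays matched theirs at 20 or 21 of 23. Panicle line differences are therefore also given without these 2 arrays.

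BURP2 was bright in leaf and at or near background in panicle. Its a_at probe set, a kind meant to detect several transcripts of 1 gene, stood at 12.58, 12.55 and 12.18 in KMR3 leaves and at 13.08, 12.63 and 12.70 in IL50-7 leaves. In panicles it stood at 4.60, 3.38 and 1.74 in KMR3 and at 1.85, 3.29 and 4.33 in IL50-7, so that 1 of 3 arrays in each line lay above background. Every leaf array exceeded every panicle array by a wide margin, and the nearest pair within a line was 7.58 apart in KMR3 and 8.30 in IL50-7. In KMR3 the mean level was 12.44 ± 0.23 in leaf and 3.24 ± 1.43 in panicle, and in IL50-7 it was 12.80 ± 0.24 and 3.16 ± 1.25 (SD, n = 3 each), with both panicle means under background. In this bulk tissue, fewer cells that express a gene and less RNA per cell cannot be told apart.

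The x_at probe set of BURP2, a kind whose probes may also bind other transcripts, gave the same order of organs. It stood at 8.43, 8.35 and 8.13 in KMR3 leaves and at 9.07, 8.39 and 7.15 in IL50-7 leaves. In panicles it stood at 3.75, 1.26 and 0.93 in KMR3, all under background, and at 1.80, 4.29 and 3.28 in IL50-7, where 1 array was above it. Against background the KMR3 panicle was at least 19.6-fold lower than the leaf. The spread among the 3 IL50-7 leaf arrays (SD 0.97) was wider than among the 3 KMR3 leaf arrays (SD 0.15).

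BURP16, the pectin-linked member, was also higher in leaf, with much more spread. In KMR3 leaves it stood at 8.15, 7.05 and 5.24 (mean 6.81 ± 1.47 SD), and in IL50-7 leaves at 4.85, 5.23 and 5.76 (5.28 ± 0.46). All 6 leaf arrays were above background. In KMR3 panicles it stood at or under the floor of 0.26 in replicate 1, at 0.66 in replicate 2 and at 4.15 in replicate 3, where it was just above background. In IL50-7 panicles it stood at 2.72, 3.56 and 0.64, all under background, so that the panicle was at least 2.41-fold lower than the leaf in that line. Leaf and panicle arrays did not overlap in either line, and the nearest pair was 1.09 apart in KMR3 and 1.29 in IL50-7. The high array among the KMR3 panicles is 1 of the 2 that match the other line.

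BURP12 ran the other way and was higher in the panicle. Panicle levels were close together, at 6.20, 5.36 and 5.79 in KMR3 (5.78 ± 0.42 SD) and at 5.97, 5.61 and 5.76 in IL50-7 (5.78 ± 0.18 SD). Leaf levels straddled background, at 4.22, 4.50 and 2.57 in KMR3 and at 4.75, 1.88 and 1.43 in IL50-7. Of the 6 leaf arrays 3 lay above background, and all 6 panicle arrays did. The organs did not overlap, with the nearest pair within a line 0.86 apart in each. No fold is given, because both leaf means (3.77 and 2.69) lay under background.

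BURP3 was above background on all 12 arrays and did not follow organ. It stood at 10.35, 10.58 and 9.56 in KMR3 leaves, at 11.99, 9.32 and 9.46 in IL50-7 leaves, at 10.50, 10.38 and 11.98 in KMR3 panicles and at 11.93, 10.22 and 9.66 in IL50-7 panicles. The mean was 10.16 ± 0.54 in KMR3 leaf and 10.96 ± 0.89 in KMR3 panicle, a 1.73-fold difference, and 10.26 ± 1.50 and 10.60 ± 1.18 in IL50-7 (SD, n = 3 each), a 1.27-fold difference. Organ ranges overlapped in both lines. On the deposited scale, without quantile normalization, the KMR3 panicle arrays lay above the leaf arrays, with a mean difference of 1.23. IL50-7 leaf replicate 1, KMR3 panicle replicate 3 and IL50-7 panicle replicate 1 lay between 11.93 and 11.99, while the other 9 arrays lay between 9.32 and 10.58. By their labels these 3 arrays come from 3 of the 4 groups, so the spread of BURP3 lies within the labelled groups. KMR3 panicle replicate 3 matched its own line at only 3 of 23 probe sets, so its line label is in doubt.

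BURP17 was under background on all 12 arrays, with a highest level of 2.19 in KMR3 leaf replicate 2. It did not pass the filter on dim probe sets, and nothing is said of its differences.

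**Figure D1:**
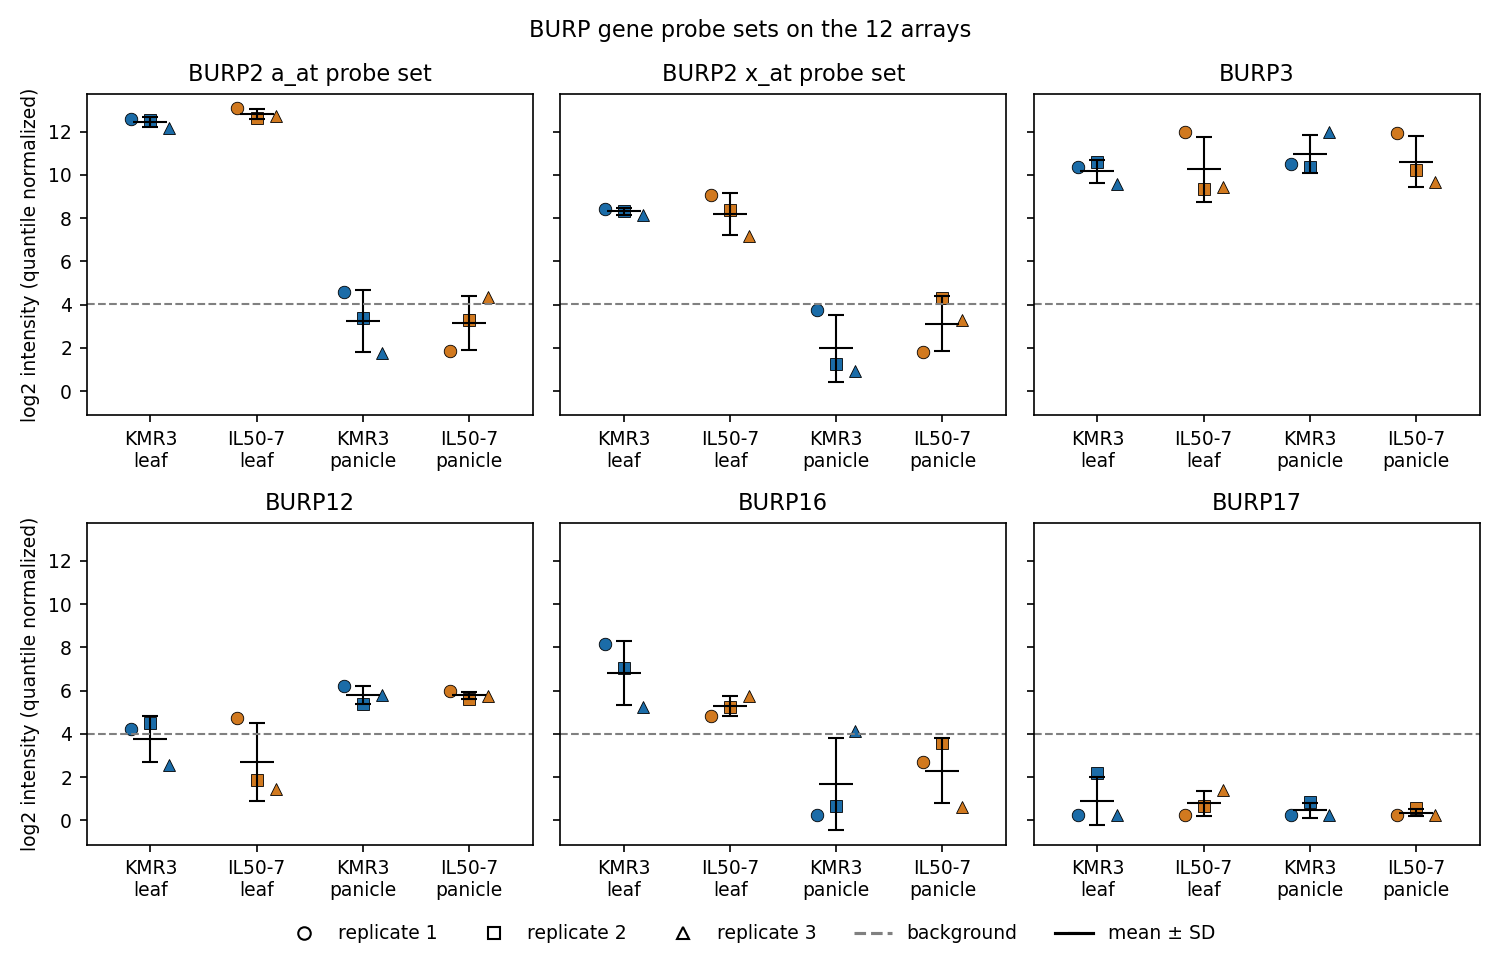
Log2 intensity (y axis) of each BURP probe set on each of 12 arrays, by line and organ (x axis). Points are arrays, with blue for KMR3, orange for IL50-7 and the shape for the replicate, black marks are means ± SD of 3 arrays, and the dashed line is background at 4.01. BURP2 and BURP16 are higher in leaf, BURP12 is higher in panicle, BURP3 is above background throughout and BURP17 is under it throughout.

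Set side by side, 4 of the 5 probe sets that passed the filter were apart between organs in each line, meaning that all 3 arrays of 1 organ lay above those of the other and the means differed by over 1 on the log2 scale. The 3 lower in the panicle were both BURP2 probe sets and BURP16, and the 1 higher was BURP12. Over all 34316 probe sets tested, 21.7% were lower and 19.8% higher in the KMR3 panicle by that measure, and 20.3% and 17.9% in the IL50-7 panicle. In both lines at once 16.1% were lower and 14.7% higher. A probe set with an organ difference was more likely to pass the filter through its bright organ, so the counts of members support nothing about the family.

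**Figure D2:**
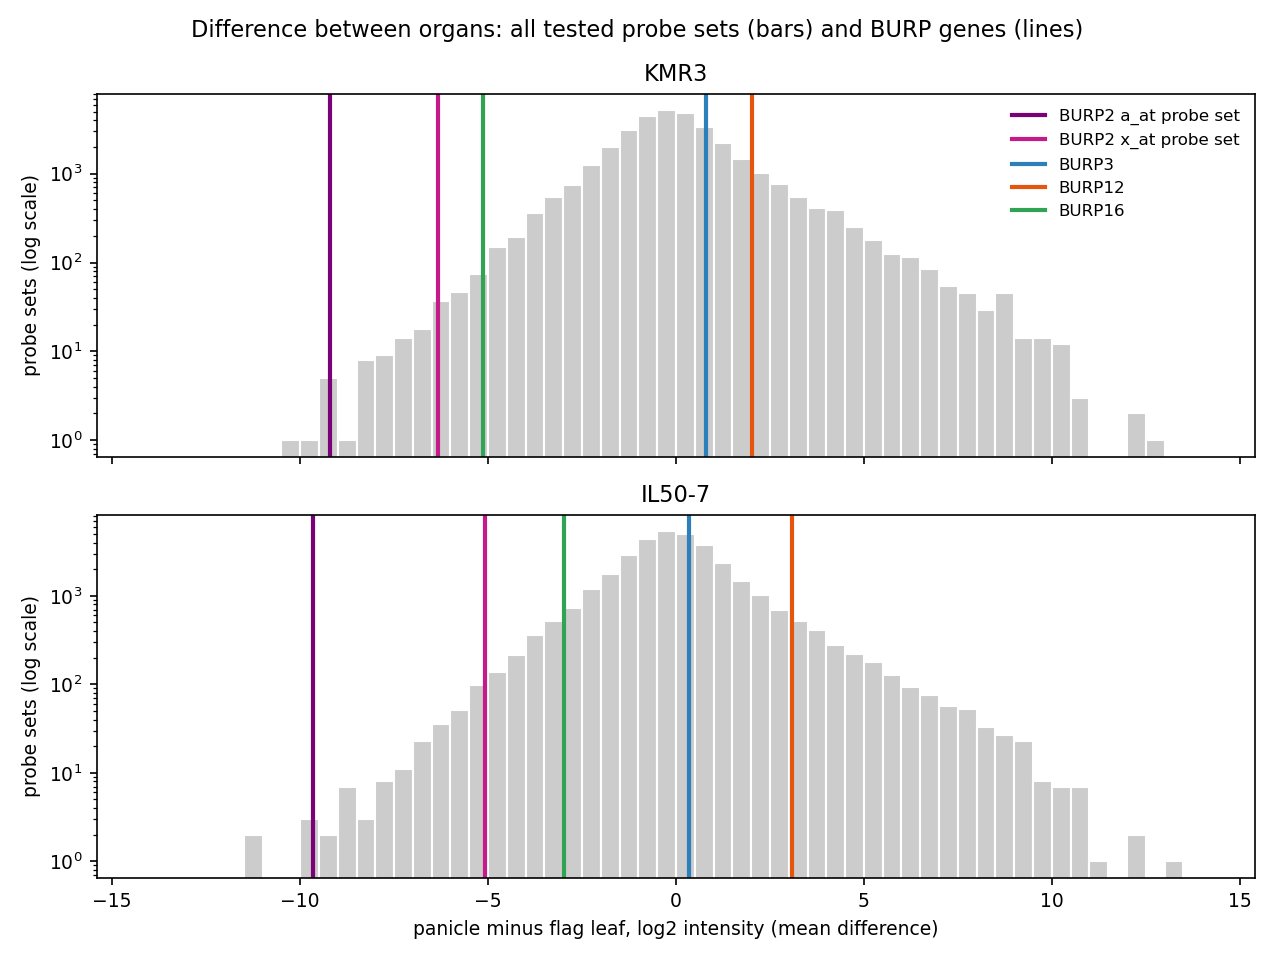
Panicle minus flag leaf difference in mean log2 intensity (x axis) for the 34316 tested probe sets (grey bars, number of probe sets on a log scale) and for 5 BURP probe sets (coloured lines), in KMR3 (top) and IL50-7 (bottom). Both BURP2 probe sets and BURP16 lie left of 0, BURP12 lies right of it, and BURP3 lies near 0 at 0.79 and 0.35.

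Flag leaves of the 2 lines were compared to see whether IL50-7 differs from KMR3 in these genes in the organ that feeds the grain. No BURP gene passed the test (0 of 5 probe sets by limma at an adjusted p under 0.05, where 0.0729% of all probe sets passed). None had an unadjusted p under 0.05 either, against 4.85% of all. BURP16 had the largest fitted difference among them, -1.53 ± 1.09 SE, with a 95% interval of -3.93 to 0.86. For BURP12 it was -1.08 ± 0.78 SE (-2.80 to 0.64), a fitted size only, because both leaf means lay under background. That for BURP3 was 0.09 ± 0.76 SE (-1.57 to 1.76). The BURP2 a_at probe set was 1.29-fold higher in IL50-7, 0.37 ± 0.68 SE (-1.12 to 1.86), and the x_at probe set differed by -0.10 ± 0.79 SE (-1.85 to 1.64). The adjusted p was 1 for all 5 (limma). The 3 IL50-7 leaf levels of the BURP2 a_at probe set all lay above the 3 of KMR3, the only such case among the 5, while 9.17% of all probe sets had lines that did not overlap in leaves. These intervals reach beyond a 2-fold difference (1 on the log2 scale) in at least 1 direction for every probe set, so this fit does not show likeness either. The spread is shared over the 4 groups, so the widths for BURP2 and BURP16 also hold their panicle levels, mostly under background. With only the 6 leaf arrays fitted, the SE was smaller for BURP2, at 0.17 (a_at) and 0.44 (x_at). It was 0.69 for BURP16 and 0.68 for BURP3, but larger for BURP12, at 0.997. The wide interval of the BURP2 a_at probe set is therefore not a measure of its spread in leaves.

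Single arrays moved these leaf values. With each array left out in turn, the fitted difference ran from -0.78 to 0.56 for BURP3, from -2.11 to -0.45 for BURP12, from -2.33 to -0.85 for BURP16, from -0.53 to 0.42 for the BURP2 x_at probe set and from 0.23 to 0.46 for its a_at probe set. BURP3 was negative without IL50-7 leaf replicate 1 (-0.78) or KMR3 leaf replicate 3 (-0.21), and the x_at probe set was positive without IL50-7 leaf replicate 3. BURP12 was at -2.11 ± 0.56 SE without IL50-7 leaf replicate 1 (limma, adjusted p = 0.322) and at -0.45 ± 0.80 SE without IL50-7 leaf replicate 3. Both are fitted sizes only, because both leaf means of BURP12 lay under background. BURP16 was at -0.85 ± 1.21 SE without KMR3 leaf replicate 1 and at -2.33 ± 1.17 SE without KMR3 leaf replicate 3. Without IL50-7 leaf replicate 1, BURP3 was also apart between organs in IL50-7, at 1.22 higher in the panicle. On IL50-7 leaf replicate 1 BURP12 was 4.75, against 1.88 and 1.43 in the other 2 IL50-7 leaves, both under background. Its GAPDH ratio was 6.01, against 2.54 and 3.68 in those 2 and 6.32, 5.54 and 2.57 in KMR3 leaves. It also stood apart in the summed intensity of abscisic acid and dehydration genes, at 15393 against 7885 to 8838 in the other 5 leaf arrays. That sum follows its brightest probe sets, such as BZIP23 (12.16, against 10.38 to 10.97 in the other 5), and the list did not move together. Against the other 2 IL50-7 leaves, RAB16B was lower there (7.65 against 8.90 and 8.11), as was a RAB21 probe set (7.00 against 8.63 and 8.54). The part of the GAPDH ratio or of these genes in the BURP levels was not tested.

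In the panicle no BURP gene passed the test (0 of 5 by limma, with 0% of all probe sets called), and none had an unadjusted p under 0.05, against 3.29% of all. The fitted difference, IL50-7 minus KMR3, was -0.01 ± 0.78 SE for BURP12 (95% interval -1.72 to 1.71) and -0.35 ± 0.76 SE for BURP3 (-2.02 to 1.31). The spread is shared over the 4 groups, so the width for BURP12 also holds its leaf levels, partly under background. With only the 6 panicle arrays fitted, the SE was 0.27 for BURP12 and 0.68 for BURP3. BURP16 and both BURP2 probe sets had panicle means under background in each line, so their panicle line differences are not measured. For none of the 5 were the lines free of overlap, against 9.22% of all probe sets. Without the 2 panicle arrays that match the other line, 0 of 5 passed as well, while 128 of all 34316 probe sets then did by limma, and the difference was 0.08 ± 1.04 SE for BURP12 and 0.35 ± 0.91 SE for BURP3. With single panicle arrays left out, the BURP3 difference ran from -1.02 (without IL50-7 panicle replicate 1) to 0.16 (without KMR3 panicle replicate 3), and it was 0.12 without IL50-7 panicle replicate 3.

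The interaction, taken as the line difference in panicles minus the line difference in leaves, asked whether line acts differently on these genes in the 2 organs. It passed for 0 of 5 probe sets by limma (0.0291% of all probe sets passed) and 0 of 5 had an unadjusted p under 0.05 (3.91% of all). For BURP3 it was -0.45 ± 1.07 SE (95% interval -2.80 to 1.91) and for BURP12 1.07 ± 1.11 SE (-1.36 to 3.50). That of BURP16 was 2.15 ± 1.54 SE (-1.24 to 5.54), a fitted size only, because its panicle mean was under background in each line. The interaction of BURP12 is also a fitted size only, because its leaf mean was under background in each line.

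**Figure D3:**
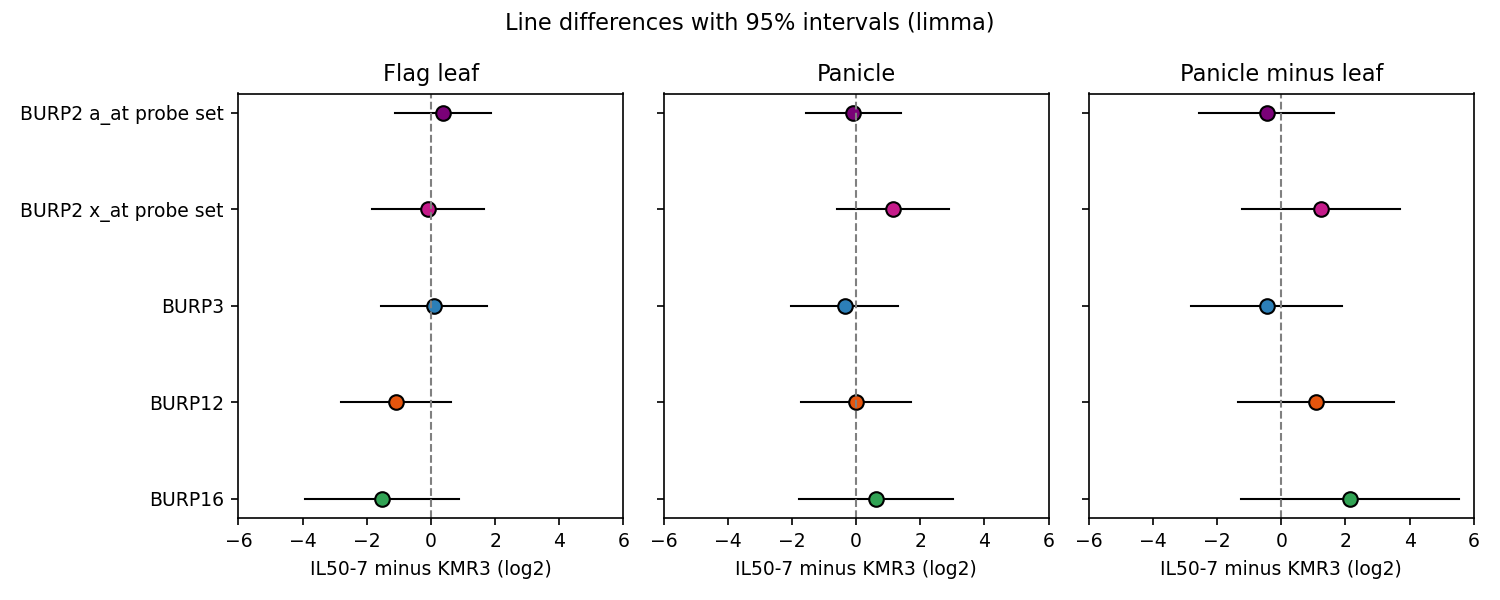
Fitted difference IL50-7 minus KMR3 in log2 intensity (x axis) for 5 BURP probe sets (rows) in flag leaf, in panicle, and as the panicle difference minus the leaf difference. Points are limma estimates from 12 arrays and bars are 95% intervals, every one of which includes 0. The panicle means of BURP2 and BURP16, and the leaf means of BURP12, lie under background in each line.

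Genes with the level pattern most like that of each probe set were sought among 2870 tested probe sets of named genes. The measure was the root mean square difference between log2 profiles over the 12 arrays, each centred on its own mean, so a small value means alike. Because arrays of an organ share most of their pattern, likeness mostly follows organ for the 4 probe sets that differ between organs. For BURP12 the nearest were JAZ12, a repressor of the jasmonate response (0.32), 4CL-3, a ligase of phenylpropanoid synthesis (0.53), and AOS, the allene oxide synthase of jasmonate synthesis (0.53), against a median of 1.63 over all candidates. For BURP16 they were EXLA4, of the expansin-like proteins of the cell wall (1.14), 4CLL7 (1.18), with PPT3 next. The BURP2 a_at probe set was nearest to PDX12 (1.29), the linalool synthase LIS (1.43) and CRSH2, a chloroplast ppGpp synthase (1.54). Its x_at probe set was nearest to ALDP (0.86), NDH-M (0.92) and PEX11-4 (0.97). Most panicle levels of BURP2 and BURP16, and 3 of 6 leaf levels of BURP12, were under background and enter these distances, so the order of the nearest genes rests partly on levels that are not measured amounts.

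BURP3 was added to this search after its values had been seen. Its nearest gene was CESA3, a cellulose synthase subunit (0.38 and 0.45 for 2 probe sets), followed by the lipid transfer protein LTP2-B (0.41) and the receptor kinase CR4 (0.50), against a median of 1.14. The nearer CESA3 probe set stood at 12.34, 12.40 and 12.54 on the 3 arrays with high BURP3 and between 10.17 and 11.74 on the other 9. CESA3 was chosen for its likeness to BURP3 on these same arrays. That both were highest on the same 3 arrays is therefore part of that choice and no further result.

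**Figure D4:**
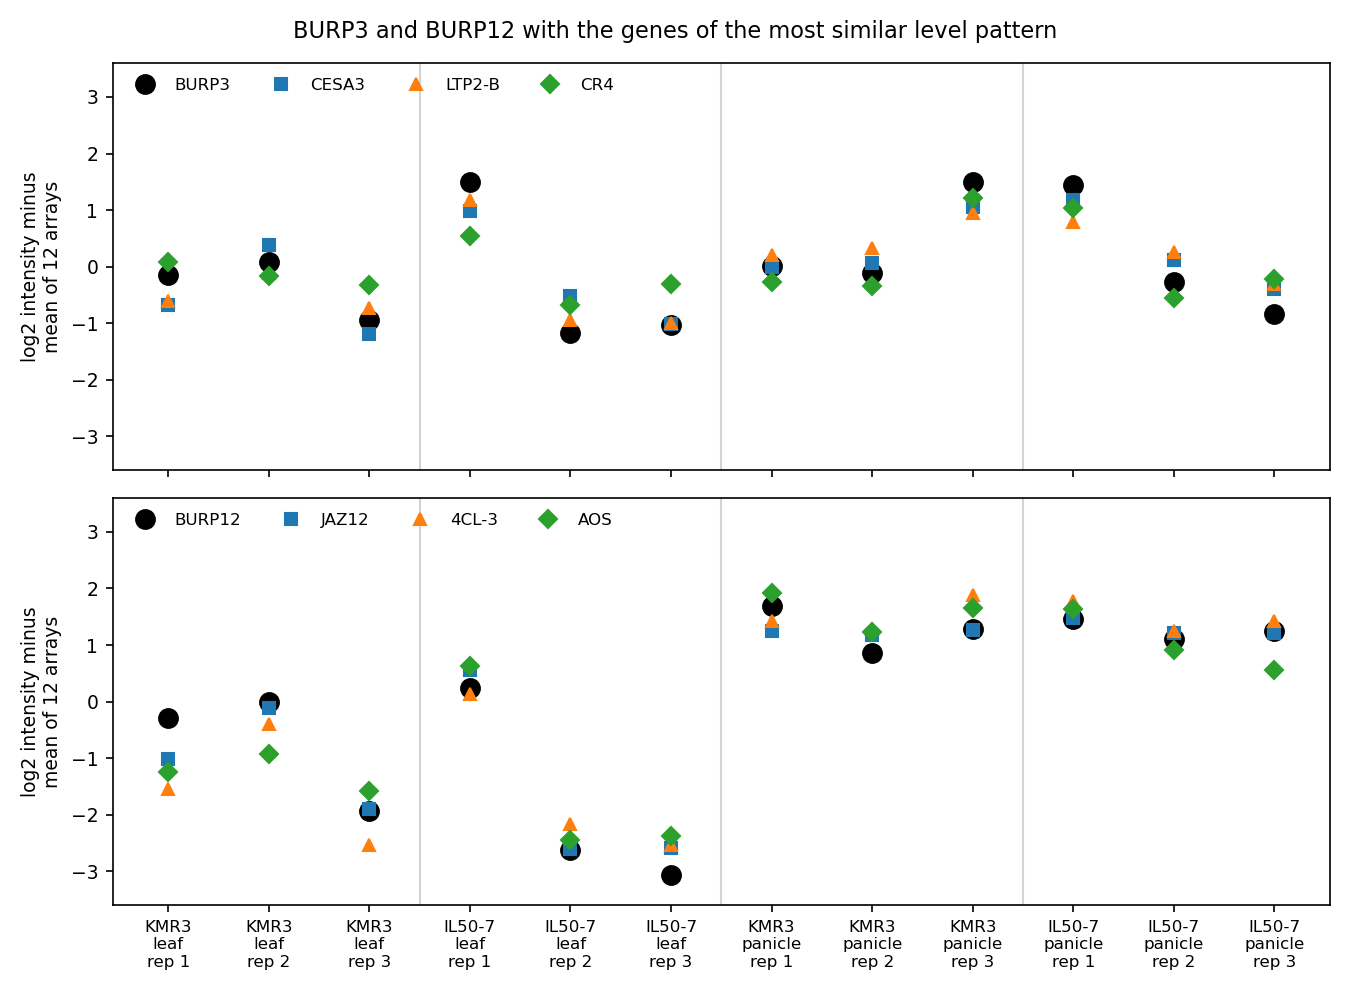
Log2 intensity of BURP3 (top) and BURP12 (bottom) on each of 12 arrays (x axis), with the 3 genes of the most similar pattern, each minus its own mean over the arrays (y axis). BURP3, CESA3, LTP2-B and CR4 are all highest on IL50-7 leaf replicate 1, KMR3 panicle replicate 3 and IL50-7 panicle replicate 1, and BURP12, JAZ12 and 4CL-3 are higher in every panicle array than in every leaf array, while 1 leaf array of AOS (9.59) exceeds its lowest panicle array (9.53).

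Other BURP genes were sought as well. Of 7 further names, 4 were found and 2 have a probe set. BURP10 was under background on all 12 arrays. On the panicle arrays where BURP3 was highest, RAFTIN1 (BURP13) stood at 11.06 (KMR3) and 10.98 (IL50-7). The other 4 panicle arrays had it between 4.92 and 7.77. IL50-7 leaf replicate 1, where BURP3 was at 11.99, held RAFTIN1 at 4.42, close to background.

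Genes of a tapetum and anther list were higher in panicles for 10 of 11 tested probe sets in KMR3 and 9 in IL50-7. The tapetum is the anther layer that feeds pollen. Over all probe sets tested the shares were 19.8% and 17.9%. Of the 11, 0 were called between lines, against 0.0729% of all in leaves and 0% in panicles. Their summed intensity was 561 to 726 in leaves, 19876 to 33595 in KMR3 panicles and 9984 to 31066 in IL50-7 panicles. The 2 panicle arrays with the highest BURP3 levels were also the 2 highest panicle arrays for 8 of the 11, a tally made after the values were seen. RAFTIN1, described above, is among the 8. The share of all probe sets that are highest on these 2 arrays was not counted, so the tally shows nothing particular to tapetum and anther genes. PTC1 was lowest on those 2 arrays, C6 was highest on IL50-7 panicle replicate 2, and MTR1 differed little among panicles (9.62 to 10.07). On IL50-7 leaf replicate 1, the other array with high BURP3, the summed intensity was 726, against 561 to 665 in the other 5 leaf arrays. The part of anther stage in the BURP3 levels was not tested.

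RD22, a founding member, gives the family its link to dehydration, so genes of abscisic acid and dehydration response were counted beside it. Of 19 tested probe sets 9 were higher and 1 lower in the KMR3 panicle, 4 higher and 1 lower in that of IL50-7. Over all probe sets tested, 19.8% were higher and 21.7% lower in the KMR3 panicle, and 17.9% and 20.3% in that of IL50-7. Of the 19, 0 were called between lines in either organ, against 0.0729% of all in leaves and 0% in panicles. RAB25 had a mean level of 7.96 in KMR3 panicles and 8.17 in IL50-7 panicles, with both leaf means under background. LEA3, a late embryogenesis abundant protein, had panicle means of 7.87 and 8.25, with leaf means of 3.50, under background, in KMR3 and 4.28 in IL50-7. The receptor PYL5 was lower in the panicle by 1.24 and 1.11, the direction of BURP2 and BURP16. Of the 4 probe sets found for pectin and polygalacturonase genes, 3 were higher in the KMR3 panicle and 2 in that of IL50-7. None was lower or called between lines. With so few probe sets beside the shares over all, the counts are not read as a result about either list. FOR1 (LOC4343645), a polygalacturonase inhibitor, had means of 4.94 in leaf and 10.87 in panicle of KMR3, and of 4.93 and 10.79 in IL50-7. PMEI28, a pectin methylesterase inhibitor, had panicle means of 6.10 in KMR3 and 5.99 in IL50-7, with both leaf means under background as for BURP12.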

How the data were processed

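Biotinylated RNA of each sample was measured on a 1-colour Affymetrix array, per the labels' protocols. The authors deposited 1 linear intensity per probe set and array, and trimmed means ran from 125 to 296. GCOS version 1.2 is named in the submitters' processing notes, while for algorithm and scaling no source used here gives an account. The intensities were log2 transformed, quantile normalized and floored at the 10th percentile (0.26). Of 57194 non-control probe sets, the 34316 with a mean above the 40th percentile were tested.

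limma (version 3.58.1, R 4.3.3) fitted 4 group means over 12 arrays with a trend in the prior variance (8 residual and 3.22 prior degrees of freedom) and Benjamini-Hochberg adjustment at 0.05. The fit was tested on simulated data. Samples were grouped by the line and organ in the labels, and p-values measure only the spread between these arrays, whose number limits precision. Names come from the platform annotation and a RefSeq table (assembly ASM3414082v1) that served for names and chromosome numbers only.

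The members and gene lists were chosen with earlier results of these data known. All members are named, each probe set by itself, list genes number at most 4 per list, and the nearest 3 genes are given per member that is apart between organs. List names shared by several genes (1 tapetum and 1 leaf name) were not used, except in the pectin list, where both genes named FOR1 were kept. Alternatives changed the scaling, filter, floor, variance trend, array weights, block and arrays used.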

Additional observations from a re-analysis of the deposited data

How the results depend on the processing

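The count of BURP probe sets called between lines was 0 in leaves and in panicles under each of 23 alternatives, and 0 for the interaction under each of 22, the replicate block (value 0 in each) included. At most 1 of them had an unadjusted p under 0.05 in leaves, in panicles or for the interaction. The count apart between organs was 4 in each line and 2 in each with the filter at the 60th percentile, where 3 of the 5 probe sets were left to count. It was 5 in KMR3 on the deposited scale, where BURP3 was apart, and with 1 array left out it ran from 4 to 5 in each line, with 5 without KMR3 leaf replicate 2 (KMR3) or IL50-7 leaf replicate 1 (IL50-7). Over all probe sets, calls numbered 25 in leaves and 11 to 84 over the alternatives, 0 in panicles and 0 to 128 (the latter without both panicle arrays in doubt), and 10 for the interaction and 1 to 16. Same-numbered arrays of the lines deviated with correlations of -0.13 to 0.12 in leaves and -0.33 to 0.40 in panicles, so the numbers were not taken as pairs, and the replicate block gave 17, 0 and 4 calls. Every organ difference of BURP2, BURP12 and BURP16 kept its sign in all alternatives run, while that of BURP3 in IL50-7 changed sign in 3 of 19. Line differences too small to call changed sign in up to 5 alternatives, as for BURP12 in panicles and BURP3 in the interaction. The number and brightness of arrays set the limits: panicle means of BURP2 and BURP16, and leaf means of BURP12, lie under background.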
